A study of Mus musculus with 2 samples.

Results

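The inhibitory checkpoint genes and the genes of the PD-1 ligands were followed in tumor-infiltrating immune cells (TIIs). The set was given as a list. No value was a criterion for it, but earlier results of these data were known when it was chosen. It holds the receptor genes Pdcd1 (PD-1), Lag3, Havcr2 (TIM-3), Tigit and Ctla4, the exhaustion-associated transcription factor gene Tox, the ectonucleotidase gene Entpd1 (CD39), and the ligand genes Cd274 (PD-L1) and Pdcd1lg2 (PD-L2). These are 9 of the 31053 genes in the files, and all 9 were detected in both libraries. The 7 genes other than the ligands are called the receptor genes below for short, although Tox and Entpd1 code for no receptor. The study's scRNA-seq experiment asked how creatine supplementation altered the immune cells of B16-OVA tumors, a mouse melanoma line that carries the model antigen ovalbumin. The methods name C57BL/6J mice, male and 8 to 12 weeks of age unless otherwise stated, all of them tumor-bearing. One group received creatine by intraperitoneal injection (10.5 mg, daily from day 3 after tumor inoculation), and the control group received PBS. The treatment label of one library reads PBS, while its protocol entry repeats the creatine injection. Its title and treatment label decided that it serves as control here. By the labels, 4 tumors per group were combined at day 14, and the 2 cell suspensions were sorted as DAPI-CD45.2+ cells, of which 10000 per group were loaded. The scRNA-seq methods give the same day and number of tumors. Another passage of the methods gives day 10 for the isolation, and the figure legend gives 5 mice. There is thus 1 pooled library per group. No difference given here has a replicate check, no test was possible, and the group and the library cannot be told apart.

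Inhibitory receptors are induced on T cells by antigen stimulation, and tumor-infiltrating T cells that meet antigen for a long time keep several of them together, a state known as exhaustion in which TOX takes part. PD-1 signals when it binds PD-L1 or PD-L2. PD-L1 is carried by many cell types and is induced by interferon-γ through JAK kinases and the factor IRF1, whereas PD-L2 is largely a product of dendritic cells and macrophages. LAG-3 binds MHC class II, CTLA-4 competes with CD28 for CD80 and CD86 and is constitutive in regulatory T cells, TIM-3 binds galectin-9 among other ligands, TIGIT binds the nectin family members PVR and nectin-2, and CD39 breaks down extracellular ATP on the way to adenosine.

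Cells were assigned by marker transcripts, none of which was a member, to gates for CD8 T cells, CD4 conventional T cells, regulatory T cells, NK cells, macrophages, monocytes and dendritic cells. After cells with over 25% mitochondrial UMIs were left out, the control library held 7241 cells with a median of 7688 UMIs and the creatine library 6229 cells with a median of 8475. The gates, with B cells and neutrophils, took 74.3% and 77.6% of these cells. CD8 T cells numbered 2597 in control and 2073 in creatine TIIs, CD4 conventional T cells 167 and 161, regulatory T cells 318 and 193, NK cells 808 and 1199, macrophages 735 and 299, monocytes 481 and 750, and dendritic cells 202 and 103. The defining markers describe the gates and cannot check them, because the gates were set on them. Cd8a was at 605 and 729 UMIs per 1000000 UMIs of the gate (CPM) in CD8 T cells against at most 14.5 in the NK gate. Foxp3 was at 436 and 535 CPM in regulatory T cells against 0 in CD4 conventional T cells. C1qa was at 3359 and 3786 CPM in macrophages against at most 39.6 in monocytes. Il2ra and Mrc1 set no gate. Il2ra was at 291 and 284 CPM in regulatory T cells against 31.0 and 28.3 CPM in CD4 conventional T cells. Mrc1 was at 745 and 548 CPM in macrophages against 142 and 24.6 CPM in monocytes. Both libraries also held free RNA or fused barcodes: H2-Ab1, a class II gene of antigen-presenting cells, was at 633 CPM in control and 174 CPM in creatine NK cells, and 2.35% and 1.43% of barcodes carried T cell and myeloid markers together and were left in no gate. The libraries shared 30 cell barcodes.

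Promoters are printed for Pdcd1 and the genes of both its ligands, which are compared on both sides of the contact between T cell and myeloid cell, and for Ctla4, whose ratio between the libraries took opposite signs in different gates. Each window is the 250 bases before the RefSeq transcription start (GRCm38.p6), 5′ to 3′ on the strand of the gene. Of the 9 members, 7 had such a window. Capitals mark matches on either strand to GGAAA, the core of NFAT sites, or to GAAANNGAA, a pair of interferon regulatory factor (IRF) half-sites.
Pdcd1 (chr1:94052554-94052803, minus strand): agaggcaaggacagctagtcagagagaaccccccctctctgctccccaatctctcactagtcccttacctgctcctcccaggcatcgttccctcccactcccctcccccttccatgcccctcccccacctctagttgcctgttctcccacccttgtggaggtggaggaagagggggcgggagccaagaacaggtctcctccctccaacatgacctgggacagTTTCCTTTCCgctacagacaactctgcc
Ctla4 (chr1:60908775-60909024, plus strand): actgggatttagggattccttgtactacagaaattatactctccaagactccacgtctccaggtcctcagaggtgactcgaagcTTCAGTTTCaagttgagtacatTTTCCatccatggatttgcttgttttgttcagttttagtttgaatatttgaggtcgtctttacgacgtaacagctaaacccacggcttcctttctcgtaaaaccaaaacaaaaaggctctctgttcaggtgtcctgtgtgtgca
Cd274 (chr19:29367188-29367437, plus strand): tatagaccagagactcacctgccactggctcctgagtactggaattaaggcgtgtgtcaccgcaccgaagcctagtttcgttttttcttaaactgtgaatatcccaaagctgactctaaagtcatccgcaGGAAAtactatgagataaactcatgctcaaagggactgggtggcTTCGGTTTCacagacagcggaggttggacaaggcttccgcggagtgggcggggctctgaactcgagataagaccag
Pdcd1lg2 (chr19:29410669-29410918, plus strand): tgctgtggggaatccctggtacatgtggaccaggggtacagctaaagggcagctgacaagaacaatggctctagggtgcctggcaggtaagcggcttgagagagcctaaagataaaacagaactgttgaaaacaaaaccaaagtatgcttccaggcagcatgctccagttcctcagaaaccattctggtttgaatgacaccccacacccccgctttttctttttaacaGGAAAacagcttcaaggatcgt
The window of Pdcd1 held 2 matches to GGAAA, which overlap no other motif, and those of Ctla4, Cd274 and Pdcd1lg2 held 1 each. Of all 32851 mouse promoter windows of this length, 55.6% held this core. The IRF letters were found in the windows of Cd274 and Ctla4 and in none of the other 5 members with a window, against 7.13% of all windows, and they were chosen after a longer form of the motif had given no match. Another motif that was searched is not reported here. Cd274 and Pdcd1lg2 lie side by side on chromosome 19 with 22823 bases between them, and Jak2 ends 54374 bases before Cd274.

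CD8 T cells held the most cells and the most UMIs of the gates. Lag3 stood at 200 CPM (95% Poisson interval 196 to 205) in the control library and 330 CPM (324 to 337) in the creatine library, which is 0.72 (0.68 to 0.77) as a log2 ratio of creatine over control. It was the only one of the 7 receptor genes past 1.5-fold, in a gate where 3.74% of 11532 genes with at least 50 UMIs were past 1.5-fold higher and 5.20% past it lower. Havcr2 went from 108 to 133 CPM, a log2 ratio of 0.31 (0.24 to 0.37). Pdcd1 was at 232 CPM in control and 275 CPM in creatine cells, 0.25 (0.20 to 0.29) on the log2 scale and 0.14 both with equal weight for each cell and with cells thinned to 2000 UMIs. Entpd1 was higher by 0.22 (0.12 to 0.31), at 49.9 and 58.1 CPM, but by 0.08 with equal weight and 0.05 thinned, which lie outside that interval. Ctla4 was the exception and was lower in creatine TIIs, at 64.1 CPM in control and 49.2 CPM, a log2 ratio of -0.38 (-0.47 to -0.29). Markers of the gate also differed: Cd3e was at 614 and 773 CPM, Cd8a at 605 and 729 CPM and Cd8b1 at 837 and 947 CPM. The antigen-presenting cell gene H2-Ab1 went from 96.2 to 37.2 CPM. The part of these in the receptor ratios was not tested. Intervals here and below cover counting error only. The difference between mice is not in them.

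Tigit was scarce in CD8 T cells, with 266 and 274 UMIs, and its ratio of 0.18 (-0.07 to 0.43) held 0 in its interval. Tox, at 290 and 300 CPM, had a log2 ratio of 0.05 (0.01 to 0.09), but the direction turned to -0.13 when each cell had equal weight and to -0.14 when cells were thinned to 2000 UMIs, so no direction can be read for it. On the log2 scale the receptor genes had a median ratio of 0.22, beside 0.04 for all genes measured in the gate, and it was 0.08 with equal weight for each cell and 0.05 after thinning.

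**Figure D1:**
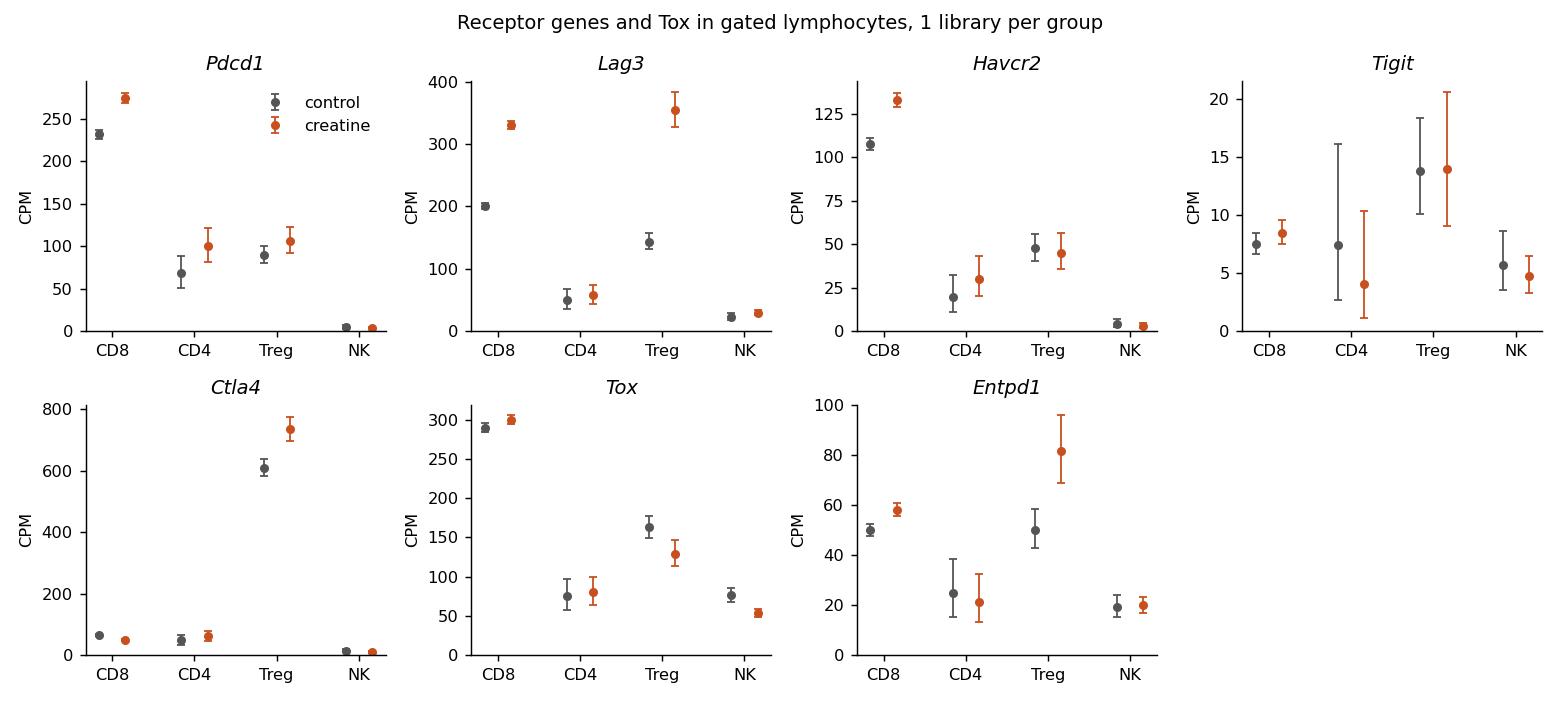
CPM (y axis, UMIs per 1000000 UMIs of the gate) of the 7 receptor genes in 4 lymphocyte gates (x axis), with grey points for the control and orange points for the creatine library and bars for 95% Poisson intervals, 1 library per group. Lag3 is apart between the libraries in CD8 T cells (200 and 330 CPM) and in regulatory T cells (144 and 354 CPM), while Ctla4 has its highest CPM in regulatory T cells.

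Dividing cells made up 55.3% of control and 52.1% of creatine CD8 T cells (UMIs of at least 2 of 8 cell-cycle genes). Lag3 was higher in the creatine library in both parts, by 0.78 (0.73 to 0.83) among dividing and 0.56 (0.48 to 0.63) among non-dividing cells. Its highest level in the gate was the 400 CPM of non-dividing creatine cells, against 272 CPM in control. Pdcd1 was higher by 0.30 (0.25 to 0.36) in dividing cells, whereas the interval in non-dividing cells, 0.07 (-0.01 to 0.16), held 0. Tox took opposite signs in the 2 parts, 0.13 (0.08 to 0.18) in dividing and -0.17 (-0.25 to -0.10) in non-dividing cells. Ctla4 was lower in both, by -0.43 (-0.54 to -0.32) and -0.28 (-0.45 to -0.10).

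To set depth aside, each cell was thinned to 2000 UMIs, which left out 46 control and 17 creatine CD8 T cells with fewer. The share of CD8 T cells with a Lag3 UMI was then 32.5% (30.7 to 34.4, exact binomial interval) in control and 41.9% (39.7 to 44.0) in creatine TIIs. Cells that held Lag3 also held more of it, 1.36 and 1.67 UMIs per positive cell. Before thinning the shares were 75.8% and 77.5%, at median depths of 10182 and 12285 UMIs. Monocytes, which should lack Lag3 and had median depths of 7524 and 9138 UMIs, showed a thinned share of 1.27% and 0.55%. At 1000 UMIs per cell the shares of CD8 T cells were 19.4% (17.9 to 21.0) and 27.4% (25.5 to 29.4), again apart.

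The thinned share with Ctla4 was 12.2% (11.0 to 13.6) in control and 7.44% (6.34 to 8.66) in creatine CD8 T cells, 40.4% and 36.2% unthinned, with 1.48% and 0.27% of thinned monocytes as background. At 1000 UMIs per cell the intervals overlapped, at 5.99% (5.11 to 6.97) and 4.58% (3.72 to 5.57). The intervals of the shares with Pdcd1 overlapped, at 36.7% (34.9 to 38.6) and 37.5% (35.4 to 39.6), and positive cells held 1.38 and 1.49 UMIs. Before thinning, 76.4% and 75.8% held Pdcd1. Havcr2 was found in 16.4% (15.0 to 17.9) and 19.5% (17.8 to 21.2) of thinned cells, 53.3% and 57.2% unthinned. Of the thinned NK cells, 0.92% of 758 and 0.60% of 1165 held Havcr2. B cells, the gate chosen as one that should lack it, were too few to give a background, at 0 of 19 and 0 of 37. Tigit remained rare at 1.65% and 1.56% (9.40% and 11.3% unthinned), above the 0.21% and 0% of monocytes. Tox was found in 42.0% (40.1 to 43.9) and 39.4% (37.3 to 41.5) of thinned cells and Entpd1 in 10.1% (8.93 to 11.3) and 10.2% (8.89 to 11.6). Without thinning these were 83.0% and 80.2% for Tox and 40.4% and 47.2% for Entpd1.

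How often receptor transcripts were found together was then counted in single CD8 T cells. A thinned cell held a mean of 1.52 of the 7 genes in control and 1.57 in creatine TIIs, and 5.53% (4.67 to 6.49) and 6.86% (5.80 to 8.04) held at least 4, with overlapping intervals. None was found in 22.5% and 24.3%. Without thinning, 64.9% (63.0 to 66.7) and 66.8% (64.7 to 68.8) held at least 4, and 7.47% and 10.0% held none. The low thinned shares are thus tied to the depth kept per cell. The thinned mean was 1.56 and 1.71 in dividing cells and 1.46 and 1.42 in non-dividing cells. Without thinning, 79.9% (77.8 to 82.0) and 87.0% (84.8 to 88.9) of dividing cells held at least 4, at median depths of 16075 and 19363 UMIs. Of non-dividing cells, 46.3% (43.4 to 49.2) and 44.8% (41.6 to 47.9) did. Of the 21 pairs of genes, 13 were shared by more cells in the creatine library, 4 of them with intervals that did not overlap, and 2 pairs were lower with intervals apart. Pairs of other genes were not counted, so these numbers have no background share. By CPM, 57.3% of all genes measured in the gate were higher in the creatine library. Of the 4 pairs, all but Havcr2 with Entpd1 included Lag3, whose single share was itself higher. Lag3 and Havcr2 were found together in 6.23% (5.33 to 7.24) of control and 11.5% (10.1 to 12.9) of creatine cells. These shares were 1.17 and 1.41 times the product of the single shares. Havcr2 and Entpd1 were joint in 1.96% (1.46 to 2.58) and 3.55% (2.79 to 4.44), which is 1.19 and 1.80 times the product. Lag3 with Pdcd1 (14.6% and 19.5%) and Lag3 with Tox (16.1% and 21.2%) stood at 1.22 and 1.24 and at 1.18 and 1.29 times the product. Both pairs with intervals apart that were lower included Ctla4: with Pdcd1 5.49% (4.64 to 6.44) against 3.40% (2.66 to 4.28), and with Tox 5.57% (4.71 to 6.53) against 3.55% (2.79 to 4.44).

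**Figure D2:**
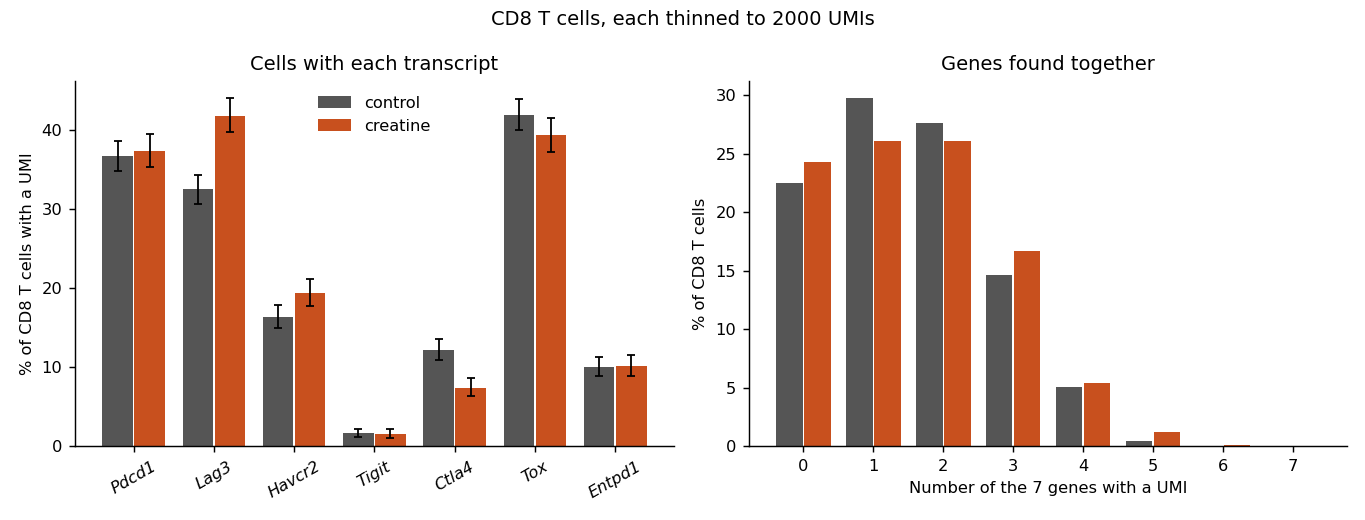
CD8 T cells thinned to 2000 UMIs each, grey for control (2551 cells) and orange for creatine (2056 cells). Left, percent of cells with a UMI of each gene with exact binomial 95% intervals, in which Lag3 is higher (32.5% and 41.9%) and Ctla4 lower (12.2% and 7.44%) in the creatine library. Right, percent of cells by the number of the 7 genes found in the same cell, dividing and non-dividing cells together. The profiles were similar in both libraries (means of 1.52 and 1.57).

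Of the 4 lymphocyte gates, regulatory T cells showed the largest ratio of Lag3. It was at 144 CPM (131 to 157) in control and 354 CPM (327 to 383) in creatine cells, a log2 ratio of 1.30 (1.13 to 1.48). After thinning, 25.8% (20.9 to 31.1) and 42.1% (35.0 to 49.5) of regulatory T cells held Lag3 (48.4% and 63.7% unthinned), and the positive cells held 1.75 and 2.23 UMIs. At 1000 UMIs per cell the intervals overlapped, at 18.4% (14.2 to 23.1) and 24.4% (18.5 to 31.0). Markers of the gate also differed: Cd3e was at 420 and 588 CPM, Foxp3 at 436 and 535 CPM and Izumo1r at 174 and 278 CPM, while the antigen-presenting cell genes Cd74 and H2-Ab1 went from 1688 to 803 and from 796 to 341 CPM. The part of these in the Lag3 ratio was not tested. Dividing cells, in which Lag3 was lower than in non-dividing ones (83.8 and 189 CPM against 273 and 526), made up 43.1% of the gate in control and 31.6% in creatine TIIs. Within dividing cells the ratio was 1.17 (0.86 to 1.47), within non-dividing cells 0.95 (0.73 to 1.16), and with the same mix of both in each library 0.98.

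Entpd1 was at 50.1 CPM in control and 81.6 CPM in creatine regulatory T cells, a log2 ratio of 0.70 (0.37 to 1.03). The ratio was 0.89 (0.42 to 1.36) in non-dividing cells, while the interval in dividing cells, 0.17 (-0.36 to 0.69), held 0. The difference between these parts was not tested. Thinned sums gave 0.25, and thinned shares of 13.7% (10.0 to 18.1) and 14.7% (10.0 to 20.6) overlapped, with 34.6% and 43.5% before thinning. Lag3 and Entpd1 made 2 of 7 receptor genes past 1.5-fold higher, where 7.22% of the 7768 genes measured in this gate were past it higher and 5.66% past it lower.

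Ctla4 had its highest level of any gate in regulatory T cells, 610 CPM (584 to 637) in control and 736 CPM (696 to 777) in creatine cells. The log2 ratio was 0.27 (0.17 to 0.37), 0.42 (0.28 to 0.56) in dividing and -0.08 (-0.23 to 0.06) in non-dividing cells, and it turned to -0.07 with equal weight for each cell. The thinned shares with Ctla4, 62.9% (57.1 to 68.4) and 65.8% (58.6 to 72.5), overlapped (86.2% and 88.6% unthinned). Tox was lower, at 163 and 129 CPM, a log2 ratio of -0.34 (-0.56 to -0.11). The intervals of Pdcd1 (0.25, -0.02 to 0.52), Tigit (0.02, -0.75 to 0.75) and Havcr2 (-0.08, -0.48 to 0.32) held 0. The median over the 7 genes was 0.25, beside 0.06 for all genes in the gate, but it was -0.07 with equal weight for each cell, 0.06 thinned and 0.07 with the same mix of dividing cells.

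CD4 conventional T cells were few and shallow, with median depths of 3975 and 4971 UMIs, so that only 4 of the 7 receptor genes reached 50 UMIs. Pdcd1 was higher in the creatine library, at 100 CPM against 68.2 CPM and a log2 ratio of 0.55 (0.06 to 1.05), and it was found in 9.40% (5.23 to 15.3) and 12.9% (8.06 to 19.2) of thinned control and creatine cells (19.2% and 22.4% unthinned). The other 6 intervals held 0, among them Lag3 (0.21, -0.39 to 0.84), Ctla4 (0.36, -0.25 to 0.99) and Tox (0.08, -0.42 to 0.58). None of the 4 was past 1.5-fold, where 7.58% of 4695 genes were past it higher and 4.56% lower. Lag3 took opposite signs in dividing and non-dividing cells, but the 27 dividing cells of each library carried only 8 and 35 of its UMIs.

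NK cells carried little of these transcripts apart from Tox. Tox, which also acts in NK cell development, was at 76.0 CPM (67.6 to 85.2) in control and 53.5 CPM (48.5 to 58.9) in creatine NK cells, a log2 ratio of -0.51 (-0.73 to -0.29). Thinned shares were 12.3% (10.0 to 14.8) and 9.96% (8.30 to 11.8), and unthinned shares 26.7% and 24.6%. Ctla4 was at 14.0 and 9.21 CPM, -0.60 (-1.13 to -0.07), and was the only 1 of 5 measured receptor genes past 1.5-fold, in a gate where 5.05% of 9294 genes were past it lower and 2.78% higher. Ctla4 UMIs were also fewer in gates with little of the transcript, at 5.97 and 2.21 CPM in macrophages and 5.19 and 2.00 CPM in monocytes. Tox likewise stood at 4.20 and 1.43 CPM in monocytes. The part of free RNA in the NK values was not tested. Lag3 in NK cells was at 23.1 and 29.2 CPM (0.34, -0.02 to 0.71), and the intervals of Pdcd1, Havcr2, Tigit and Entpd1 all held 0.

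**Figure D3:**
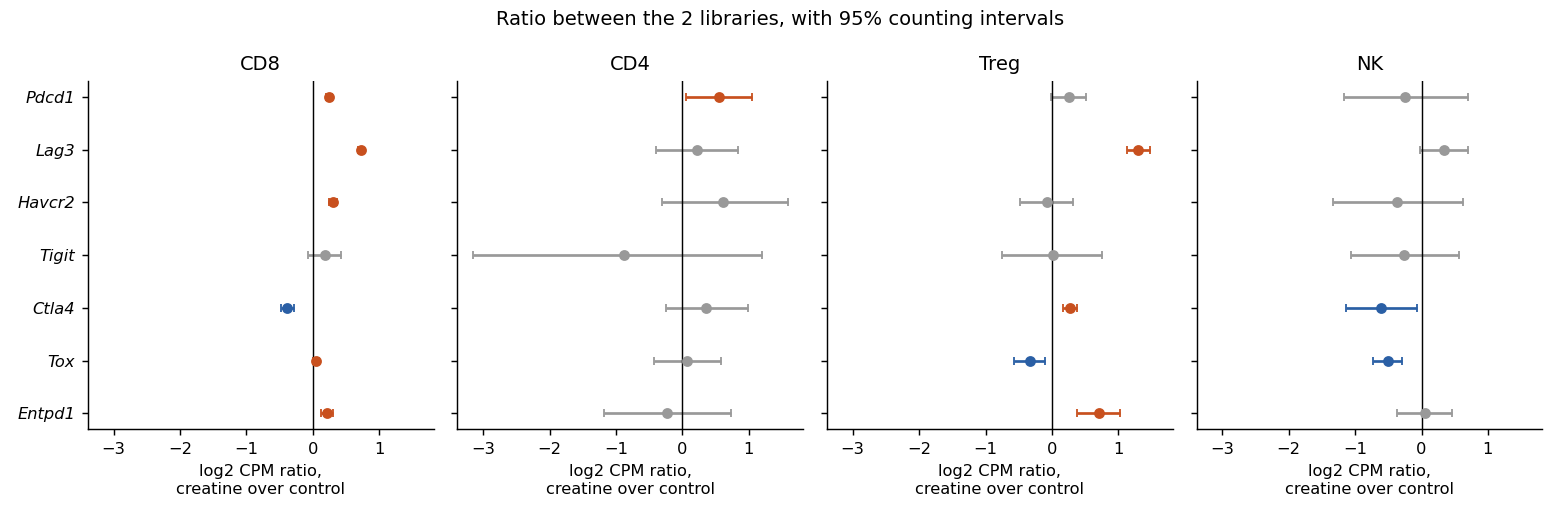
Log2 ratio of CPM, creatine over control (x axis), of the 7 receptor genes (y axis) in 4 gates, with exact 95% counting intervals. Orange marks intervals above 0, blue below 0 and grey those that hold 0. Lag3 is furthest to the right in CD8 T cells (0.72) and regulatory T cells (1.30). The signs of Tox in CD8 T cells and of Ctla4 in regulatory T cells turned under other weights of the cells.

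Across the 7 gates, the order of levels was led by CD8 T cells for Pdcd1, Havcr2 and Tox in both libraries and by regulatory T cells for Ctla4 and Tigit. The Tigit intervals of regulatory T cells and CD8 T cells overlapped in the creatine library (14.0 and 8.51 CPM). For Lag3 the order of the first 2 gates changed: CD8 T cells were above regulatory T cells in control (200 and 144 CPM, intervals apart), whereas regulatory T cells and CD8 T cells did not differ beyond counting error in the creatine library (354 and 330 CPM). Pdcd1 followed in regulatory T cells at 89.7 and 107 CPM and in CD4 conventional T cells at 68.2 and 100 CPM, with overlapping intervals, and was below 5 CPM in the other gates. Entpd1 was highest in macrophages, at 123 and 146 CPM, and above the lymphocytes in control monocytes at 68.5 CPM. In monocytes it was lower in the creatine library (47.0 CPM, a log2 ratio of -0.54, -0.78 to -0.31). Havcr2, also a receptor of myeloid cells, was at 47.0 and 34.7 CPM in monocytes and 33.7 and 33.5 CPM in macrophages. Within classical monocytes it was at 40.1 and 17.0 CPM, a log2 ratio of -1.24 (-1.68 to -0.80), and within nonclassical monocytes at 72.8 and 58.3 CPM (-0.32, -0.75 to 0.12).

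Macrophages carried the most Cd274 of the 7 gates, and the largest ratio of it among macrophages, monocytes and dendritic cells. Cd274 was at 123 CPM (116 to 129) in control and 193 CPM (182 to 205) in creatine macrophages, a log2 ratio of 0.66 (0.54 to 0.77). The ratio was 0.65 (0.48 to 0.82) in dividing and 0.66 (0.51 to 0.82) in non-dividing macrophages, and 0.51 after thinning. Thinned shares were 18.6% (15.7 to 21.9) and 28.9% (23.5 to 34.8), and unthinned shares 55.0% and 71.2% at median depths of 12544 and 16673 UMIs. At 1000 UMIs per cell they were 9.46% (7.35 to 11.9) and 16.7% (12.5 to 21.7). No gate was set as one that should lack Cd274, and thinned NK cells held it at 6.33% (4.71 to 8.31) and 8.93% (7.35 to 10.7). Other markers differed between control and creatine macrophages: Ly6c2 was at 224 and 422 CPM, Mrc1 at 745 and 548 CPM and Ace at 0.47 and 6.96 CPM. H2-Ab1 was at 3499 and 3354 CPM. The part of these differences in the ratios of both ligand genes was not tested.

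Pdcd1lg2 was a rare transcript in macrophages, with 70 UMIs in control and 120 in creatine cells, or 6.64 CPM (5.17 to 8.38) and 20.4 CPM (16.9 to 24.4). The log2 ratio was 1.62 (1.18 to 2.07), again alike in dividing (1.65) and non-dividing (1.59) cells. It was 0.84 with equal weight for each cell. Pdcd1lg2 was found in 1.09% (0.44 to 2.23) and 3.80% (1.84 to 6.88) of thinned macrophages and in 7.07% and 16.7% before thinning. Both ligand genes were thus past 1.5-fold higher, where 3.33% of 9879 genes measured in macrophages were past it higher and 4.23% lower.

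Reads assigned to Pdcd1lg2 were not confined to myeloid cells. NK cells, chosen as the gate that should lack the gene, held 27.8 and 35.6 CPM and CD8 T cells 24.1 and 20.9 CPM, above the level of control macrophages. The thinned shares of NK cells were 4.35% and 5.41%, at or above those of macrophages, so the macrophage shares cannot be set against this background. The source of these reads in lymphocytes was not tested.

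In monocytes the intervals of both ligand ratios held 0. Cd274 was at 86.6 and 91.0 CPM (0.07, -0.12 to 0.26), with thinned shares of 14.6% (11.6 to 18.1) and 15.1% (12.6 to 17.9) and unthinned shares of 34.3% and 32.9%. It was at 88.3 and 94.7 CPM in classical and 79.9 and 86.0 CPM in nonclassical monocytes, so that the shift from 73.0% to 55.7% classical cells left it nearly level. Pdcd1lg2, on 31 and 35 UMIs, had a ratio of -0.62 (-1.36 to 0.13), past 1.5-fold lower but with 0 in its interval. In this gate 8.15% of 8858 genes were past 1.5-fold lower and 7.68% higher.

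Dendritic cells as a whole held Cd274 at 81.2 CPM (71.0 to 92.4) in control and 96.5 CPM (80.8 to 114) in creatine TIIs, a log2 ratio of 0.25 (-0.07 to 0.56). The subsets were then taken apart, with the difference between them not tested. In cDC1, which cross-present antigen, Cd274 was at 22.8 and 45.7 CPM, a log2 ratio of 1.01 (0.15 to 1.87) on 24 and 26 UMIs. In cDC2 it was at 50.6 and 91.5 CPM, 0.85 (0.33 to 1.38). In Ccr7+ dendritic cells, the migratory state, it was at 345 and 292 CPM (-0.24, -0.74 to 0.25), the highest level of any subset. The 38 control and 12 creatine cells of this state gave 59.2% and 36.1% of the gate's Cd274 UMIs, while their share of the gate was 18.8% and 11.7%. With equal weight for each cell the ratio of the whole gate was -0.18. It was -0.14 with the 25 control and 81 creatine cells added that carried dendritic cell markers beside high levels of myeloid genes and stood in no gate.

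Pdcd1lg2 in dendritic cells was likewise concentrated in the Ccr7+ state, with 24.6 and 30.5 CPM in the gate (0.31, -0.28 to 0.89) and 66.7% and 35.7% of its UMIs in Ccr7+ cells, at 117 and 91.3 CPM there. In cDC2 its ratio was 1.58 (0.43 to 2.78), on only 12 and 17 UMIs. The intervals in cDC1 (0.75, -0.64 to 2.13) and in Ccr7+ cells (-0.36, -1.31 to 0.50) held 0. Neither ligand gene was past 1.5-fold in the whole gate, where 8.22% of 7023 genes were past it higher and 7.46% lower. Thinned shares with Cd274 were 15.7% (10.9 to 21.5) and 18.4% (11.3 to 27.5), and unthinned 34.2% and 38.8%. For Pdcd1lg2 they were 7.07% and 1.02% thinned but 15.8% and 16.5% unthinned. The thinned value of the creatine library rests on 1 of 98 cells and goes against the CPM, so no order is read from it.

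**Figure D4:**
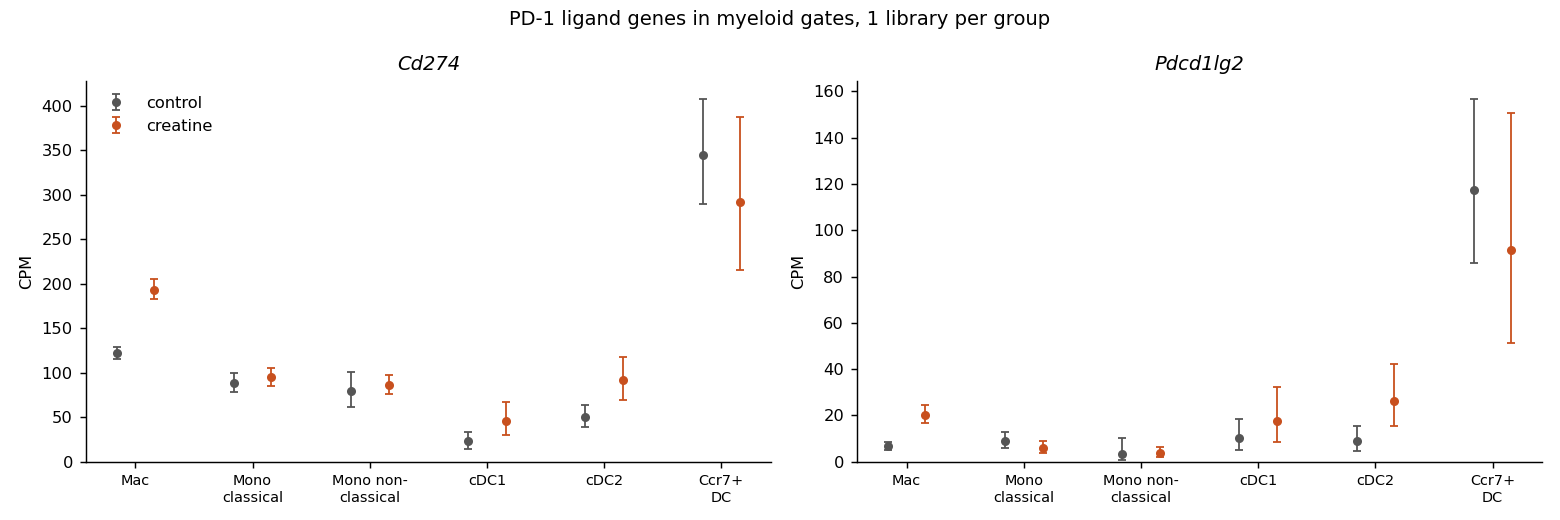
CPM (y axis) of Cd274 and Pdcd1lg2 in macrophages and in the subsets of monocytes and dendritic cells (x axis), grey for control and orange for creatine, with 95% Poisson intervals and 1 library per group. In macrophages the intervals of both genes are apart (Cd274 123 and 193 CPM), and Ccr7+ dendritic cells hold the highest levels on 38 and 12 cells.

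The other genes of these pathways were followed as 4 fixed lists, 47 genes in all. Over 7 gates, 234 pairs of gene and gate had at least 50 UMIs, and 42 were past 1.5-fold higher and 18 lower. Over all genes measured, 2.78% to 8.22% were past it higher and 4.23% to 8.15% lower, depending on the gate. The interferon-γ chain that leads to Cd274 was followed first. Irf1 was at 139 and 280 CPM in macrophages (1.01, 0.90 to 1.11), 174 and 346 CPM in monocytes (0.99, 0.87 to 1.11) and 93.6 and 279 CPM in dendritic cells (1.57, 1.34 to 1.81). Macrophage markers differed between the libraries, as given above, and the part of this was not tested. The mix of cells in the monocyte and dendritic cell gates was also not the same in both libraries. Its part in the differences of these lists was not tested beyond the subsets given here. Classical cells were 73.0% and 55.7% of the monocytes, in which Ace was at 129 and 188 CPM, Vcan at 201 and 103 CPM and Mrc1 at 142 and 24.6 CPM. Among dendritic cells the Ccr7+ share was 18.8% and 11.7%, Lyz2 was at 232 and 535 CPM and Ly6c2 at 52.3 and 232 CPM. Within subsets, Irf1 had ratios of 0.94 (0.80 to 1.08) in classical and 1.18 (0.91 to 1.45) in nonclassical monocytes, and of 1.41 (0.95 to 1.88) in cDC1, 1.74 (1.44 to 2.05) in cDC2 and 1.38 (0.76 to 1.99) in Ccr7+ cells. In regulatory T cells it was at 135 and 216 CPM (0.68, 0.48 to 0.87), and in CD8 T cells at 79.4 and 99.6 CPM (0.33, 0.25 to 0.40). Socs1, the feedback inhibitor of the JAK kinases, had ratios of 1.60 (1.45 to 1.76), 1.18 (0.99 to 1.38) and 1.33 (1.00 to 1.66) in the 3 myeloid gates, and 0.87 (0.58 to 1.17) in regulatory T cells. Its interval in Ccr7+ dendritic cells held 0 (-0.27, -1.64 to 0.94). Jak2 was within 0.29 of 0 in every gate, between -0.13 in NK cells and 0.29 in macrophages. Ifng itself was higher in CD8 T cells (313 and 566 CPM, 0.86, 0.82 to 0.89), in CD4 conventional T cells (1.40, 1.05 to 1.75) and in regulatory T cells (1.22, 0.65 to 1.81), and was at 0.04 in NK cells. The chain did not move one way in CD8 T cells. Of its 8 genes, 2 were past 1.5-fold higher there and 1 was past it lower, beside 3.74% and 5.20% of all genes. Monocytes had these ratios of Irf1 and Socs1 beside a Cd274 ratio of 0.07.

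**Figure D5:**
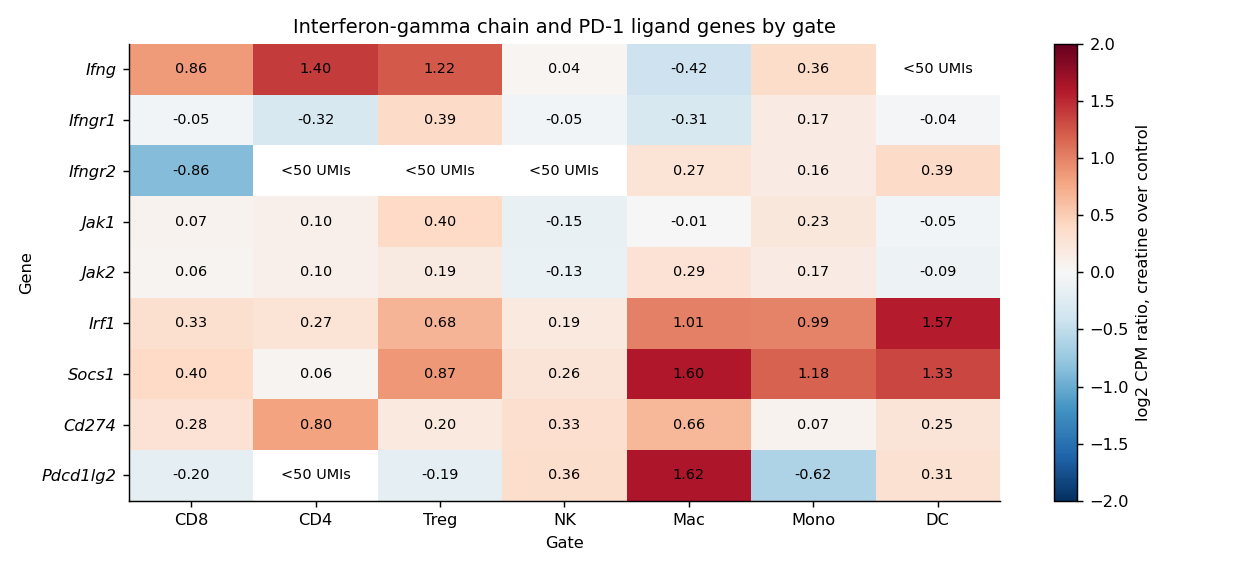
Log2 ratio of CPM, creatine over control (colour and number), of 7 genes of the interferon-γ chain and of both ligand genes (y axis) in 7 gates (x axis). Genes with under 50 UMIs in a gate carry that label in place of a ratio. Irf1 and Socs1 are past 1.5-fold in all 3 myeloid gates, whereas Cd274 is past it in macrophages (0.66) and in CD4 conventional T cells (0.80).

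Among intracellular partners and exhaustion regulators, 3 of 16 genes were past 1.5-fold higher and none lower in CD8 T cells, beside the 3.74% and 5.20% of all genes there. These were Tox2, a relative of Tox (3.19 and 8.42 CPM, 1.40, 1.08 to 1.73), Nr4a2 (106 and 186 CPM, 0.81, 0.75 to 0.87) and Nr4a1 (12.8 and 21.2 CPM, 0.73, 0.56 to 0.90), the last 2 being nuclear receptor genes induced by T cell receptor signals. Tcf7, the factor of stem-like T cells, was at 18.4 and 25.7 CPM in CD8 T cells (0.48, 0.33 to 0.63) and at 128 and 95.6 CPM in NK cells (-0.42, -0.59 to -0.26). The phosphatase genes that act behind PD-1 differed little in CD8 T cells, at 0.17 (0.12 to 0.21) for Ptpn6 and -0.11 (-0.21 to -0.01) for Ptpn11, and were higher in dendritic cells at 0.72 (0.56 to 0.87) and 0.71 (0.28 to 1.15). In regulatory T cells Nr4a3 was the only 1 of 13 measured genes of the list past 1.5-fold, at 1.01 (0.41 to 1.62). Of all genes there, 7.22% were past it higher and 5.66% lower. In dendritic cells Nr4a1 was higher (1.51, 0.88 to 2.15) and Nr4a3 lower (-0.96, -1.46 to -0.49), among 3 higher and 2 lower in a gate with 8.22% and 7.46% of all genes past it. Nr4a3 lay mostly in Ccr7+ cells, at 442 and 262 CPM (-0.75, -1.27 to -0.27), and the interval of Nr4a1 in cDC1 held 0 (0.50, -0.66 to 1.63). In macrophages Slamf6 was higher (0.64, 0.38 to 0.90). It was the 1 of 12 measured genes past 1.5-fold higher there, and 1 other was past it lower. Of all genes in macrophages, 3.33% were past it higher and 4.23% lower. In monocytes 3 were higher and 2 lower, beside 7.68% and 8.15% of all genes. Nr4a1 was among them at 0.82 (0.68 to 0.96), but within subsets it was at 1.42 (1.14 to 1.72) in classical and -0.25 (-0.40 to -0.09) in nonclassical cells, which held more of it (544 and 458 CPM). Id2, at -1.05 (-1.16 to -0.95), was lower in both subsets, at -1.04 and -0.83. NK cells had Nr4a1 higher (0.96, 0.52 to 1.42) and Slamf6 lower (-0.88, -1.29 to -0.47), and CD4 conventional T cells had Slamf6 higher (0.91, 0.56 to 1.28). These were 1 of 13 measured genes in each direction in NK cells, beside 2.78% of all genes higher and 5.05% lower. In CD4 conventional T cells 2 of 10 were higher and none lower, beside 7.58% and 4.56% of all genes.

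Of the other inhibitory or competing receptors, Cd226, which competes with TIGIT for PVR, was higher in CD8 T cells (54.5 and 86.6 CPM, 0.67, 0.58 to 0.75) and NK cells (0.66, 0.35 to 0.97). Lair1, a collagen receptor, was lower in CD8 T cells (-0.65, -0.93 to -0.37), NK cells (-0.77, -1.19 to -0.34) and regulatory T cells (-1.53, -2.60 to -0.58). It was at 269 and 158 CPM in classical and 240 and 275 CPM in nonclassical monocytes. The part of free RNA in its lymphocyte ratios was not tested. Cd226 and Lair1 were the only genes of the list past 1.5-fold in CD8 T cells, 1 of 12 in each direction beside 3.74% of all genes higher and 5.20% lower. In regulatory T cells 3 of 9 measured genes were higher, with Vsir at 0.67 (0.39 to 0.95), beside 7.22% of all genes higher and 5.66% lower. In monocytes Cd244a was higher (0.81, 0.64 to 0.99) and Cd200r1 lower (-1.41, -1.76 to -1.06). The classical subset had Cd244a at 1.11 (0.85 to 1.37) and Cd200r1 at -1.19 (-1.58 to -0.82), whereas both intervals held 0 in nonclassical cells. In CD4 conventional T cells Klrc1 was at 14.9 and 49.5 CPM (1.73, 0.80 to 2.78). No measured gene of this list was past 1.5-fold in macrophages or dendritic cells, but only 4 and 5 of the 12 had enough UMIs there. Of all genes, 3.33% were past it higher and 4.23% lower in macrophages, and 8.22% and 7.46% in dendritic cells.

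Of the ligand list, none of 7 measured genes was past 1.5-fold in macrophages, beside 3.33% of all genes higher and 4.23% lower. In monocytes 2 were higher and 1 lower of 7, beside 7.68% and 8.15% of all genes there. In macrophages Lgals9 was at 191 and 190 CPM (-0.01, -0.12 to 0.09), Cd86 at 64.6 and 80.7 CPM (0.32, 0.15 to 0.49), Cd80 at 7.11 and 4.93 CPM, Pvr at 16.8 and 15.5 CPM and Nectin2 at 4.27 and 4.59 CPM, the last 3 with 0 in the interval of the ratio. In dendritic cells Cd86 (0.21, -0.06 to 0.48) and Cd80 (-0.19, -0.98 to 0.56) held 0, and Lgals9 was higher by 0.43 (0.07 to 0.78). Pvr was the 1 of 5 past 1.5-fold there, at -0.65 (-1.59 to 0.21), beside 8.22% of all genes higher and 7.46% lower. Ceacam1, a ligand of TIM-3, was higher in monocytes (59.1 and 107 CPM, 0.86, 0.64 to 1.07). It was at 19.7 and 38.5 CPM in classical (0.96, 0.53 to 1.41) and 207 and 198 CPM in nonclassical monocytes (-0.06, -0.30 to 0.19). Nt5e, which makes adenosine after CD39, was higher in regulatory T cells (31.8 and 53.6 CPM, 0.75, 0.34 to 1.17). H2-Ab1, which codes for a chain of the LAG-3 ligand, was lower in monocytes at 3616 and 1533 CPM (-1.24, -1.27 to -1.20), with -1.16 in classical but 0.62 (0.49 to 0.76) in nonclassical cells. It was also lower in every lymphocyte gate, where it was at 96.2 and 37.2 CPM in CD8 T cells and 796 and 341 CPM in regulatory T cells. The part of free RNA in the lymphocyte values was not tested.

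The genes most like each member were read from the Pearson correlation of log2(CPM + 1) over 18 points, the 9 gates of both libraries, among 9282 genes. The points share libraries and gates, and the values are a description. Lag3 was most like Cd3g (0.91), Cd3d and Cd3e, and Tox like Thy1 (0.96), Trbc2 and Camk4, all of them T lineage genes, some of them gate markers. Pdcd1 was most like Zdhhc2 (0.98), Crmp1 and 1700097N02Rik, and Tigit like Sytl1 (0.98), Gfi1 and Ccdc92. Ctla4 was most like Sdf4 (0.94), Prkar1a and the regulatory T cell gene Izumo1r, and Havcr2 like Arhgap11a (0.88), Tmpo and Rbpj. Entpd1 was most like Slc2a1 (0.92), Litaf and P2ry13. Among the genes most like Cd274 were the interferon-induced Rsad2 (0.93) and Usp22 (0.92), and Pdcd1lg2 had the loosest match, Tmem263 (0.82), followed by Ilf2 and Ankrd54.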

How the data were processed

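Droplet scRNA-seq (Chromium 3′ kit v2) was analysed for 1 pooled control and 1 pooled creatine library. The authors made the reads into a count matrix per library with Cell Ranger 3.0.2 (build mm10, per the submitters' processing notes), and deposited raw UMI counts per gene and called cell. The gene and barcode lists hold no measurement. The authors' aggregated Seurat object was not used here.

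Cells with at least 300 UMIs, 100 genes and at most 25% mitochondrial UMIs were gated on marker UMIs, with a barcode that mixed T and myeloid markers left out and no doublet caller run. Gate thresholds were set after marker distributions, but before any member value, had been seen here. Members and lists were chosen with earlier results of these data known. UMIs were summed per gate and library (35454899 and 32185904 in CD8 T cells, 1377668 in creatine dendritic cells) and divided by the gate's total to give CPM. CPM carries exact Poisson intervals, ratios exact conditional intervals for 2 Poisson counts, and shares Clopper-Pearson intervals, all at 95%. With 1 library per group no test was made. Genes with at least 50 UMIs in a gate count as measured, and a gene counts as past the threshold at 1.5-fold. Partner genes could be named when past 1.5-fold with CPM intervals apart (up to 4 per direction, list and gate), or by a fixed list. Not every gene that met this rule is named. Ifng in NK cells is named outside that rule, after its value was seen. Some items that were measured are not reported here. For each member the 3 most alike genes are named. Alternatives were a stricter gate, a stricter cell filter, equal weight per cell, scaling by TMM in edgeR 4.0.16, CPM over genes that are neither mitochondrial nor ribosomal, leaving out the deepest 5% of cells, thinning, and the same mix of subsets. The partner genes were also split by monocyte and dendritic cell subset, a choice made after seeing the data. Intervals were tried on simulated Poisson counts, the model they assume. The simulation held no spread between cells or mice, so it cannot show how the intervals do under such spread. Positions are from GENCODE (GRCm38). Python 3.11.15, numpy 2.4.6, pandas 2.3.3 and scipy 1.17.1 were used.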

Additional observations from a re-analysis of the deposited data

Results flagged for a closer look

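Ctla4 and Tox did not move the same way in all lymphocyte gates. Ctla4 had a log2 ratio (creatine over control) of 0.27 in regulatory T cells but -0.38 in CD8 T cells and -0.60 in NK cells, and the first turned to -0.07 with equal weight for each cell. Tox had 0.050 in CD8 T cells, -0.34 in regulatory T cells and -0.51 in NK cells, and its sign in CD8 T cells turned under 4 alternatives. With 1 library per group the difference between gates was not tested for either gene.

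Cd274 was also counted in lymphocytes, outside the gates in which the ligands were to be compared. In CD4 conventional T cells it was at 45.9 CPM in control and 79.8 CPM in creatine TIIs, a log2 ratio of 0.80 (0.22 to 1.40) on 37 and 79 UMIs. Unthinned, 16.8% and 29.2% of these cells held a UMI, at median depths of 3975 and 4971 UMIs. Thinned to 2000 UMIs the shares were 8.05% (4.23 to 13.6) and 12.3% (7.54 to 18.5), with overlapping intervals. The antigen-presenting cell genes Cd74 and H2-Ab1 were at 1535 and 734 CPM and at 801 and 426 CPM in this gate. The part of free RNA in its Cd274 values was not tested.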

How the results depend on the processing

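Of 306 alternative values for 38 log2 ratios and medians, 265 stayed within the counting interval of the main value, 36 moved and 5 reversed. The 5 are the Tox and Ctla4 values named next, and they are not all the changes of sign. The regulatory T cell median and both ligand genes in dendritic cells, given below, also changed sign and are not among the 5. Tox in CD8 T cells reversed with equal weight for each cell (-0.13), without the deepest 5% of cells (-0.0038), after thinning (-0.14) and with the same mix of subsets (-0.017). Ctla4 in regulatory T cells reversed with equal weight (-0.067). The receptor median in CD8 T cells was 0.22 in the main analysis, 0.081 with equal weight and 0.049 thinned, and that in regulatory T cells went from 0.25 to -0.067 with equal weight. In macrophages Cd274 was 0.51 thinned and Pdcd1lg2 0.84 with equal weight. In dendritic cells Cd274 was -0.18 with equal weight and -0.14 with the cells of high myeloid level added, a choice made after seeing the data, and Pdcd1lg2 was -0.39 with equal weight and -3.16 thinned. At 1000 UMIs per cell, 0.77% of control and 1.01% of creatine CD8 T cells held at least 4 genes. A threshold of 2-fold left 22 of 60 partner values past it, as fewer genes reach it, and 40 had at least 200 UMIs. TMM scaling moved log2 ratios by at most 0.054 downwards. The causes of the other moves were not tested. Lag3 in CD8 T cells was 0.59 with equal weight, 0.67 thinned and 0.66 with the same mix of subsets, and in regulatory T cells it was 0.83 with equal weight, 1.05 thinned and 0.98 with the same mix. No paired analysis was possible because each group has 1 library. Depth limits Tigit in all gates, every receptor gene in CD4 conventional T cells and the subsets of dendritic cells.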

Other observations

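Cd274 was found in every lymphocyte gate. NK cells held it at 30.4 CPM in control and 38.1 CPM in the creatine library (0.33, 0.02 to 0.65) and CD8 T cells at 18.1 and 22.1 CPM (0.28, 0.13 to 0.44). In CD8 T cells the non-dividing part was at 27.7 and 38.4 CPM (0.47, 0.22 to 0.71), and the dividing part at 15.1 and 16.0 CPM (0.09, -0.12 to 0.29). Regulatory T cells were at 39.0 and 44.7 CPM, with 0 in the interval of the ratio. The part of free RNA in the Cd274 values of lymphocytes was not tested.

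Neutrophils, 41 control and 14 creatine cells, gave 10 and 29 UMIs of Cd274, or 93.6 CPM (44.9 to 172) and 737 CPM (494 to 1058). These UMIs lay in only 6 cells of each library, and the spread between cells is not in the intervals. The control cells of this gate also carried H2-Ab1 at 2378 CPM, against 50.8 CPM in creatine, so that the 2 sets of cells were not alike. The part of this in the Cd274 values was not tested. Entpd1 in the same cells was at 375 and 432 CPM, with overlapping intervals.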
